A study of Mus musculus with 38 samples.

Results

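Igfbp1 and Irs2 are genes of the insulin axis of the liver, and their chromatin was followed here across fasting and across treatment with the hormones of fasting. The members were every region of the deposited region lists that overlapped a window of the mouse mm9 assembly around either gene, which takes in the gene and about 50 kb on each side. The Igfbp1 window runs over chr11:7047000-7153000 and the Irs2 window over chr8:10934000-11059000. They held 98 of the 278566 regions in 11 lists, 51 at Igfbp1 and 47 at Irs2.

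Chromatin immunoprecipitation and sequencing (ChIP-seq) had been done in the livers of C57BL/6 mice and in primary hepatocytes, the parenchymal cells of the liver taken into culture. Liver lists came from acetylated histone H3 lysine 27 (H3K27ac) in fed mice and in mice fasted for 10 or 24 h, and from CREB and from phosphorylated CREB (pCREB) in fed mice and in mice fasted for 24 h, with 3 libraries in each of these groups. Hepatocyte lists came from CREB in untreated cells (1 library), in cells given 10 nM glucagon for 1 h (2 libraries) and in cells given 10 nM glucagon plus 1.7 uM corticosterone for 1 h (2 libraries), and from the glucocorticoid receptor (GR) in cells given both hormones (2 libraries). C/EBPb libraries and the GR libraries of liver were not analysed here.

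Each group had 1 list, so no spread between replicates could be set against a difference and no test was possible. The lists hold from 6812 regions (pCREB, fasted liver) to 47777 regions (H3K27ac, 10 h fast). They give a density for each region, headed MaxD, and a z-score, both the authors' own values. Read depth is unknown from these files, and densities of different lists were not taken as being on 1 scale. A region was therefore described by its rank by density within its own list, given as a percentage of that list, with small percentages for the densest regions. Ranks from lists of different lengths show no change by themselves, so 2 lists were compared over the loci with a region in both, after those loci had been ranked anew within each list. A locus was counted as moved when its rank differed by 10 or more percentage points. Both materials were bulk chromatin, so the share of cells that carry a site and the occupancy per cell cannot be told apart. Marker genes of the labelled cells could not be checked with these lists.

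Igfbp1 encodes insulin-like growth factor binding protein 1, a secreted protein that binds insulin-like growth factors, and its transcription in liver is repressed by insulin and raised by glucocorticoids and cyclic AMP. Irs2 encodes insulin receptor substrate 2, the adaptor that couples the activated insulin receptor to phosphoinositide 3-kinase, and it too is raised in fasted liver. Glucagon acts through cyclic AMP and protein kinase A, which phosphorylates CREB, a factor that stays on many cyclic AMP response elements in its unphosphorylated form as well. Corticosterone, the main glucocorticoid of rodents, binds GR, which then enters the nucleus and binds DNA. FOXO1, which insulin signalling keeps out of the nucleus, acts on both genes through insulin response elements. H3K27ac marks active promoters and enhancers.

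The promoters of both genes are shown because each carries a match to the insulin response element CAAAACAA, printed in capitals. The sequences are those of RefSeq, assembly GRCm38.p6, from 250 bases before the gene start to 50 bases after it, written along the gene. The Igfbp1 promoter lies at chr11:7197537-7197836 on the plus strand of that assembly, and the Irs2 promoter at chr8:11008880-11009179 on the minus strand. These coordinates belong to another assembly than the mm9 regions and are not to be set beside them.
Igfbp1: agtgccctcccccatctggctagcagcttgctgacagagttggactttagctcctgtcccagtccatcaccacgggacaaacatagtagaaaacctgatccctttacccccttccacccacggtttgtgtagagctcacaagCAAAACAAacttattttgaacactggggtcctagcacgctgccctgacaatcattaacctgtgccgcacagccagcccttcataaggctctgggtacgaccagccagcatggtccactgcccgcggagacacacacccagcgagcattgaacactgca
Irs2: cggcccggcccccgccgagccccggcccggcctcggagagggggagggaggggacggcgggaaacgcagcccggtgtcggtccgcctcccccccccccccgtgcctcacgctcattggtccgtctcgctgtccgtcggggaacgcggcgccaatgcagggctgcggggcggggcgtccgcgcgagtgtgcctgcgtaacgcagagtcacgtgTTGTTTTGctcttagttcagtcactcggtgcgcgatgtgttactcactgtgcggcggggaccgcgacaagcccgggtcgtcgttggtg

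In Igfbp1 the match reads along the gene, at bases 143 to 150 of the 300 printed. In Irs2 it reads on the opposite strand, so the printed letters are TTGTTTTG, at bases 213 to 220. CAAAACAA on either strand was found in 825 of 32851 mouse promoters of the same length (2.51%). The other motifs searched on both strands were the cyclic AMP response element TGACGTCA (in 1.79% of promoters), its core TGACG, which lies within it (20.8%), the palindromic glucocorticoid response element of steroid receptors, given by name (0.0091%), the AGAACA that opens it (18.97%), the forkhead motif GTAAACA (3.65%) and the C/EBP motif TTGCGCAA (0.183%). None of these had a match in either window of 300 bases, which says only that those letters are not in it.

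Positions in mm9 are given from the gene start as the window places it to the centre of a locus, the joined regions of all factor lists or of the lists compared, and so are approximate. Igfbp1 reads toward higher coordinates and Irs2 toward lower ones. No mm9 annotation was used, and a region is not assigned to a gene. In the order of genes of GRCm38.p6, Adcy1 and the lncRNA gene Ccdc201 lie upstream of Igfbp1, and Igfbp3, read in the opposite direction, lies downstream of it. The lncRNA gene 9530052E02Rik overlaps Irs2 and is read away from it on the other strand.

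Dense regions were present in both windows. Of the 98 regions, 17 (17.3%) were among the densest 10% of their list, against 10.0% of all regions of the 11 lists. Igfbp1 held 11 of them and Irs2 held 6. A site held by several lists counts once in each, so the 17 are not separate sites. The site 43.9 kb upstream of Igfbp1 and the Irs2 start, for example, were each counted in several lists. This excess also rests on density as the measure. By z-score fewer of the 98 regions were in the top 10% of their list, a share close to that of all regions. Most of the fall was at Irs2, where the start region of the glucagon CREB list stood at 8.44% by density and 14.80% by z-score. Igfbp1 had a region in 10 of the 11 lists and Irs2 in 9. Neither window held a region of the fed pCREB list, and the Irs2 window held none of the fasted pCREB list either. All 51 regions of the Igfbp1 window lie at or upstream of chr11:7105788, so the more distant stretch on the Igfbp3 side held none in any list.

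**Figure D1:**
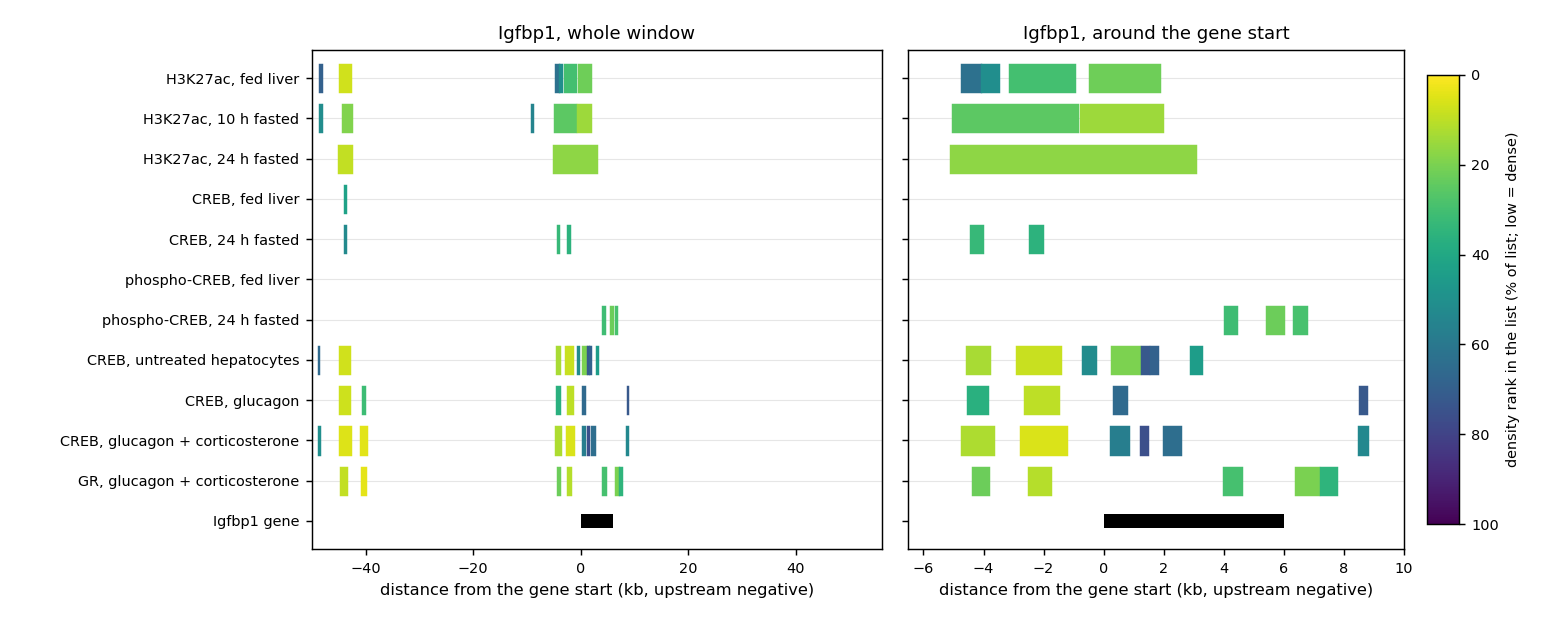
Regions of the Igfbp1 window in the 11 lists, 1 row per list, against distance from the gene start in kb (upstream negative), with the whole window on one side and the stretch around the gene enlarged on the other. Bars are regions to scale and their colour is the rank by density in the list, in percent; regions gather around 43.9 and 40.4 kb upstream and around the gene.

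The acetylated chromatin at Igfbp1 formed 1 distal block and 1 block over the gene start. The distal block, 43.9 kb upstream, was the densest of the window in the fed and 24 h lists, and was also listed at 10 h. In fed liver it spanned chr11:7052113-7054257 with a density of 61.2, rank 2181 of 29917 (7.29%). After 10 h it had a density of 30.0 (18.99% of the list) and after 24 h it spanned chr11:7051852-7054363 with one of 51.1 (9.21%). Its z-scores were 112.2, 53.3 and 82.7. Over the loci common to fed and 10 h lists its rank went from 8.90% to 36.53%, a move down of 27.63 points, which 4.19% of 24221 common loci matched or passed. From 10 to 24 h it moved up by 23.83 points, from 35.70% to 11.87%, which 7.52% of 24667 loci matched or passed. Between fed and 24 h lists it differed by only 3.25 points, from 9.05% to 12.29%. The distal block thus ranked lower in the 10 h list than in the lists of either other state. The 10 h list is longer (47777 regions against 29917 fed and 32103 at 24 h). Its library numbers also lie apart from the consecutive ones of the fed and 24 h lists. In any comparison with the 10 h list, fasting time cannot be told apart from these differences.

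Around the Igfbp1 start the fed list had the most regions, and the 24 h list had the fewest and the widest. The fed list had 4 regions there, which covered 5868 bases in all. The 10 h list had 2, covering 6935 bases, and the 24 h list had a single one, chr11:7091874-7100076, of 8202 bases. Only 0.11% of the regions of the 24 h list were as wide. The fed regions were chr11:7092242-7092918, 7092921-7093526, 7093843-7096056 and 7096512-7098886, and so lay close together. Those of the 10 h list, chr11:7091960-7096140 and 7096210-7098965, did so too. With such short gaps the number of regions shows no change by itself. The density of the leading region there was 36.0 in fed liver (22.04% of its list), 36.1 after 10 h (14.63%, chr11:7096210-7098965) and 36.7 after 24 h (17.05%). Its rank among common loci moved by 4.49 points between fed and 24 h, from 27.10% to 22.61%. The length listed around the start therefore differed between the lists while the rank of the densest point there differed by less than 10 points. The lowest z-scores of the lists were unlike (10.88 fed, 7.72 at 10 h and 8.61 at 24 h), so these lengths show no change by themselves. The locus 3.0 kb upstream moved down by 11.58 points by 10 h (from 35.74% to 47.32%; 20.1% of common loci matched or passed this).

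The 10 h H3K27ac list also held a region 9.1 kb upstream of Igfbp1, with a density of 10.4, that no other list held. A weak region 48.4 kb upstream was listed in fed liver (density 12.4) and at 10 h (11.1) and was absent at 24 h.

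CREB in fed liver had 1 region in the Igfbp1 window, at the distal block. It spanned chr11:7052929-7053402 with a density of 9.69, in the middle of its list (42.28%), and the authors' z-score was 12.2. In 24 h fasted liver this site had a density of 7.79 (52.61%), and its rank among the 6822 loci common to the liver CREB lists moved down by 8.11 points. The fasted list held 2 more regions, 4.2 and 2.1 kb upstream of the gene. The first, chr11:7092547-7092998, had a density of 13.2 (33.04%) and the second, chr11:7094506-7094993, one of 12.1 (35.74%). Their z-scores were 13.98 and 13.95, which stood lower in the list, at 63.57% and 63.65%. Both were denser than the distal site in the same list. Neither was in the fed list, whose lowest z-score was 8.46. In the Igfbp1 and Irs2 windows together, 4 of 6 fasted CREB regions were absent from the fed list, against 38.7% of all fasted CREB regions. Of these 4, 3 overlapped a GR region of hormone-treated hepatocytes, against 12.4% of the fasted regions absent from the fed list. Of all 6, 4 overlapped GR (16.7% of the whole list), 5 overlapped H3K27ac of the 24 h fast (39.2%), 5 overlapped CREB of untreated hepatocytes (46.3%) and 6 overlapped CREB with both hormones (44.7%). Absence from a list means that a region did not reach the authors' threshold there, and not that the factor was missing.

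pCREB was listed at Igfbp1 in fasted liver only, at places where CREB was not. Its 3 regions lie 4.3, 5.7 and 6.7 kb downstream of the start, in the far part of the gene and just past its end. They had densities of 8.03 (31.24% of the list), 11.8 (22.64%) and 8.68 (29.24%), the densest spanning chr11:7102391-7102998. By z-score they stood lower in the list, with 13.6 (67.82%), 18.3 (44.89%) and 13.6 (67.84%). All 3 were absent from the fed pCREB list, as were 56.7% of all fasted pCREB regions. None of the 3 overlapped a region of a CREB list or of an H3K27ac list, while 47.0% of fasted pCREB regions overlapped a CREB region of fasted liver and 13.1% an H3K27ac region of the 24 h fast. The first and the last overlapped GR regions of hormone-treated hepatocytes, over 444 and 405 bases, as 15.0% of all fasted pCREB regions did. A fasted pCREB region together with a GR region, and no other factor, was found at 70 of the 85712 loci formed by joining the regions of the 8 CREB, pCREB and GR lists (0.0817%), and 2 of the 70 were these.

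In hepatocytes CREB was listed at Igfbp1 in all 3 conditions, and the sites behaved unlike one another. The distal site at 43.9 kb was dense throughout, with 38.6 in untreated cells (7.11%), 42.1 with glucagon (7.72%) and 74.6 with both hormones (5.42%). It spanned chr11:7051950-7054157 in untreated cells, where it was the densest region of the window, as it was with glucagon, with z-scores of 55.1, 65.5 and 141.04. The site 2.1 kb upstream was dense throughout too, with 34.6 (8.23%), 35.3 (9.87%) and 73.7 (5.49%). Neither moved by 10 points in any comparison of the 3 lists. The densities themselves are not compared between lists, since their scaling is not stated.

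The site 40.4 kb upstream was listed with hormones only, and was absent from the CREB list of untreated cells. With glucagon it spanned chr11:7056259-7056910 with a density of 15.1 (31.59%), and with both hormones chr11:7055959-7057146 with a density of 86.7 (4.39%), the densest CREB region of the window. Among the 21892 loci common to these lists it moved up by 31.63 points, from 39.97% to 8.34%, and 4.30% of common loci moved up as far or farther. GR had its densest region of the window at the same place, chr11:7056051-7057000, with a density of 25.05, rank 471 of 11892 (3.96%). No liver list held a region there. Glucagon CREB, CREB with both hormones and GR, and no other factor, came together at 483 of the 85712 factor loci (0.564%), of which 1 other lies in the windows, 27.4 kb downstream of the Irs2 start.

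The site 4.2 kb upstream had densities of 25.4 (13.001%), 13.6 (36.41%) and 38.6 (12.33%). It moved down by 17.49 points with glucagon, from 30.27% to 47.76%, and up by 22.70 points when corticosterone was added, from 45.82% to 23.12%. The move up was matched or passed by 8.72% of common loci. Between untreated cells and both hormones this site moved up by only 5.08 points, from 24.45% to 19.37%. The region over the gene start, 0.7 kb into the gene in untreated cells, also moved down with glucagon, and did not move up when corticosterone was added. It had densities of 19.2 (19.62%), 8.04 (65.70%) and 9.75 (57.61%), and moved down by 35.11 points with glucagon, from 44.18% to 79.29%, a move that 3.50% of the 20159 common loci matched or passed. From glucagon to both hormones it moved down by a further 7.37 points, from 78.27% to 85.64%. Between untreated cells and both hormones it moved down by 41.23 points, which 1.09% of 25043 loci matched or passed. In the CREB list with both hormones, the sites 43.9, 40.4, 4.2 and 2.1 kb upstream thus ranked between 4.39% and 12.33%, and the gene start at 57.61%. The other hepatocyte CREB regions of the window ranked between 44.57% and 75.71% of their lists. A region 48.7 kb upstream had a density of 6.40 in untreated cells (65.75%) and 11.2 with both hormones (50.76%), and moved up by 21.84 points, from 92.43% to 70.59%. A region 8.6 kb downstream was listed with glucagon (72.49%) and with both hormones (53.49%), and not in untreated cells. Within 3.1 kb of the start, 4 further regions were listed in untreated cells, at 44.57% to 72.35% of the list, and 2 with both hormones, at 64.24% and 75.71%.

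In every list but fed pCREB, the Igfbp1 window held more regions than a stretch of that length held on average. Fasted pCREB, for example, had 3 against 0.273, and fasted CREB had 3 against 0.455. The average runs over the assembly as far as the lists reach, and not over stretches around genes only. GR had 7 regions in the window, against 0.477 on average. They fell into an upstream and a downstream group. The 4 upstream lie at 43.9, 40.4, 4.2 and 2.1 kb, with densities of 15.2 (9.06%), 25.05 (3.96%), 8.38 (22.29%) and 13.2 (11.13%), and each overlapped CREB with both hormones. The 3 downstream lie at 4.3, 6.7 and 7.5 kb, with densities of 6.71 (29.58%), 8.94 (20.22%) and 5.84 (34.88%), and none overlapped a CREB region of any list. By z-score all 7 stood lower in the list than by density, from 5.73% to 55.18%. The upstream group includes the places 4.2 and 2.1 kb upstream where CREB was listed in fasted and not in fed liver. These 2 places held CREB of fasted liver, all 3 hepatocyte CREB lists and GR, a combination found at 248 of 85712 factor loci (0.289%), while the distal site at 43.9 kb held all 5 CREB lists and GR, as 454 loci did (0.53%).

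**Figure D2:**
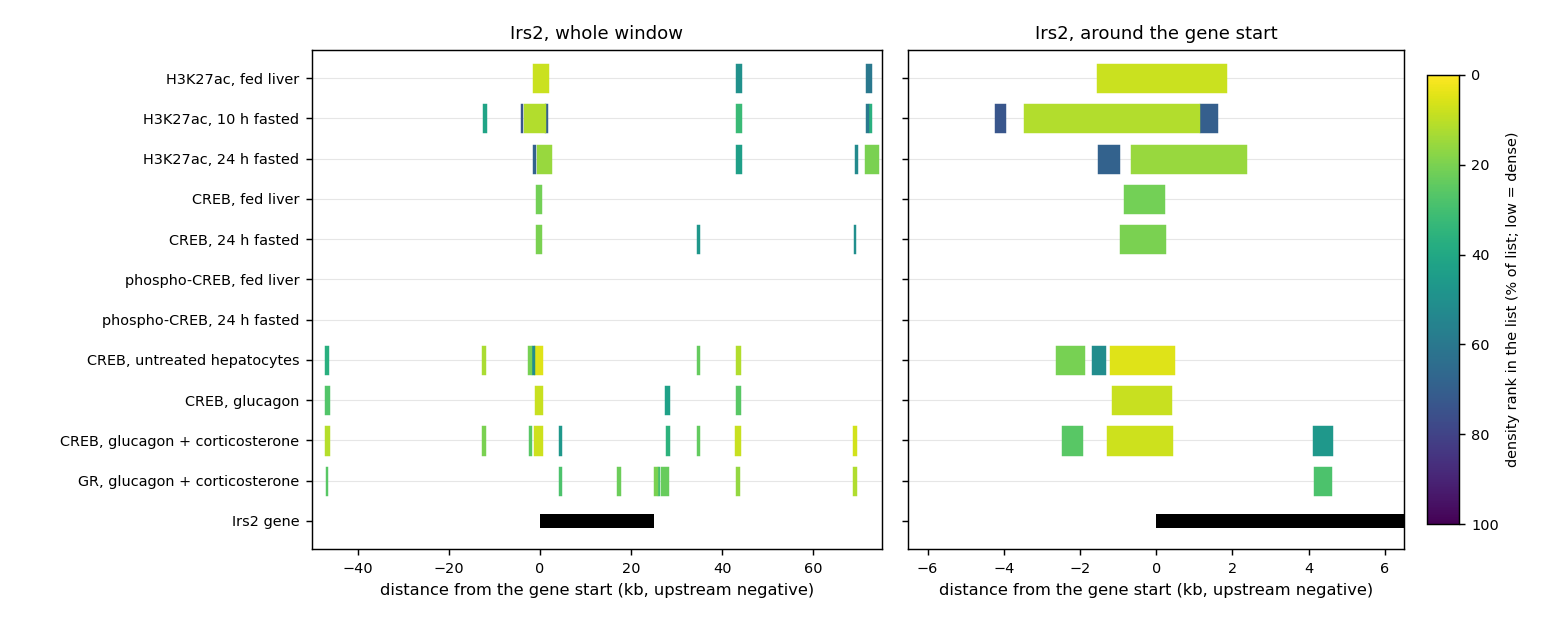
Regions of the Irs2 window in the 11 lists, 1 row per list, against distance from the gene start in kb, turned so that upstream is negative, with the whole window on one side and the stretch around the gene start enlarged on the other. Bars are regions to scale and their colour is the rank by density in the list, in percent; the start holds dense CREB and H3K27ac, while GR lies elsewhere in the window.

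At Irs2 the acetylated region over the gene start was dense in every list. In fed liver it spanned chr8:11007168-11010548 with a density of 59.1 (8.02% of the list). At 10 h the leading region was chr8:11007884-11012464, of 4580 bases, with a density of 41.1 (11.63%). At 24 h it was chr8:11006634-11009656, with 38.8 (15.59%). Among common loci it moved down by 12.87 points by 10 h, from 9.79% to 22.66%, and by 10.76 points by 24 h, from 9.95% to 20.71%. Such moves down were common, since 18.0% and 17.9% of loci matched or passed them.

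The far downstream end of the window took the opposite course. An H3K27ac region about 72 kb downstream of the start, and so well past the end of the gene, was listed with a density of 14.7 in fed liver (60.15%), as 2 regions with 16.5 and 9.22 at 10 h (36.38% and 59.45%), and with 32.6 at 24 h (20.22%). Its width was 1243 bases in fed liver and 2824 at 24 h, in lists with unlike lowest z-scores (10.88 and 8.61). Among the loci common to fed and 24 h lists it moved up by 42.02 points, from 68.78% to 26.76%, and 0.69% of 23941 loci moved up as far or farther. From the 10 h to the 24 h list it moved up by 37.38 points, from 63.03% to 25.65% (1.96% of loci matched or passed this). Between fed and 10 h it moved by 2.56 points. These shifts were ranked over different sets of common loci and do not add up. Here too, fasting time cannot be told apart from the other differences of the 10 h list.

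Next to it, 69.0 kb downstream of the start, lay a site that was listed only with fasting or with both hormones. H3K27ac was listed there at 24 h only, over chr8:10939496-10939976 with a density of 13.8 (52.47%). CREB was listed in fasted and not in fed liver, over chr8:10939801-10940057, with a density of 8.29 (50.45%), whose z-score of 9.22 was close to the lowest of that list (8.50). In hepatocytes CREB was absent from the untreated and the glucagon lists and, with both hormones, spanned chr8:10939624-10940406 with a density of 62.5, rank 2866 of 42090 (6.81%), the densest CREB region of the window in that list. By z-score the same region stood at 20.69% of the list. GR was listed over chr8:10939750-10940251 with a density of 12.7 (11.92%), its densest region of the window. By z-score the GR region stood at 39.31% of its list. The fasted CREB region of liver lies whole within both hepatocyte regions, over 257 bases. This combination, CREB of fasted liver, CREB with both hormones and GR with no other factor, was found at 12 of 85712 factor loci (0.014%). It was counted because it was met here, so the low share does not measure how unusual the site is. Of those 12, 7 overlapped H3K27ac of the 24 h fast (58.3%), and 3 did so without overlapping H3K27ac of fed liver.

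CREB lay over the Irs2 start in all 5 CREB lists. In liver it spanned chr8:11008786-11009858 with a density of 18.6 when fed (21.12%) and chr8:11008758-11009951 with 21.0 when fasted (19.93%), the densest CREB region of the window in both. Its rank among common loci moved up by 7.23 points. In hepatocytes it had densities of 50.1 untreated (5.07%), 39.6 with glucagon (8.44%) and 56.6 with both hormones (7.65%), with z-scores of 59.7, 44.3 and 58.7, and it moved by less than 10 points in all 3 comparisons. In untreated cells it spanned chr8:11008523-11010219. Neither GR nor pCREB was listed there. All 5 CREB lists met at 4.62% of factor loci with or without another factor, and at 2036 loci (2.38%) with no other factor, as here. The fasted liver list held 1 further CREB region absent from the fed list, 34.7 kb downstream, with a density of 9.02 (47.22%), which the hepatocyte lists held in untreated cells (16.8) and with both hormones (22.5) but not with glucagon.

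**Figure D3:**
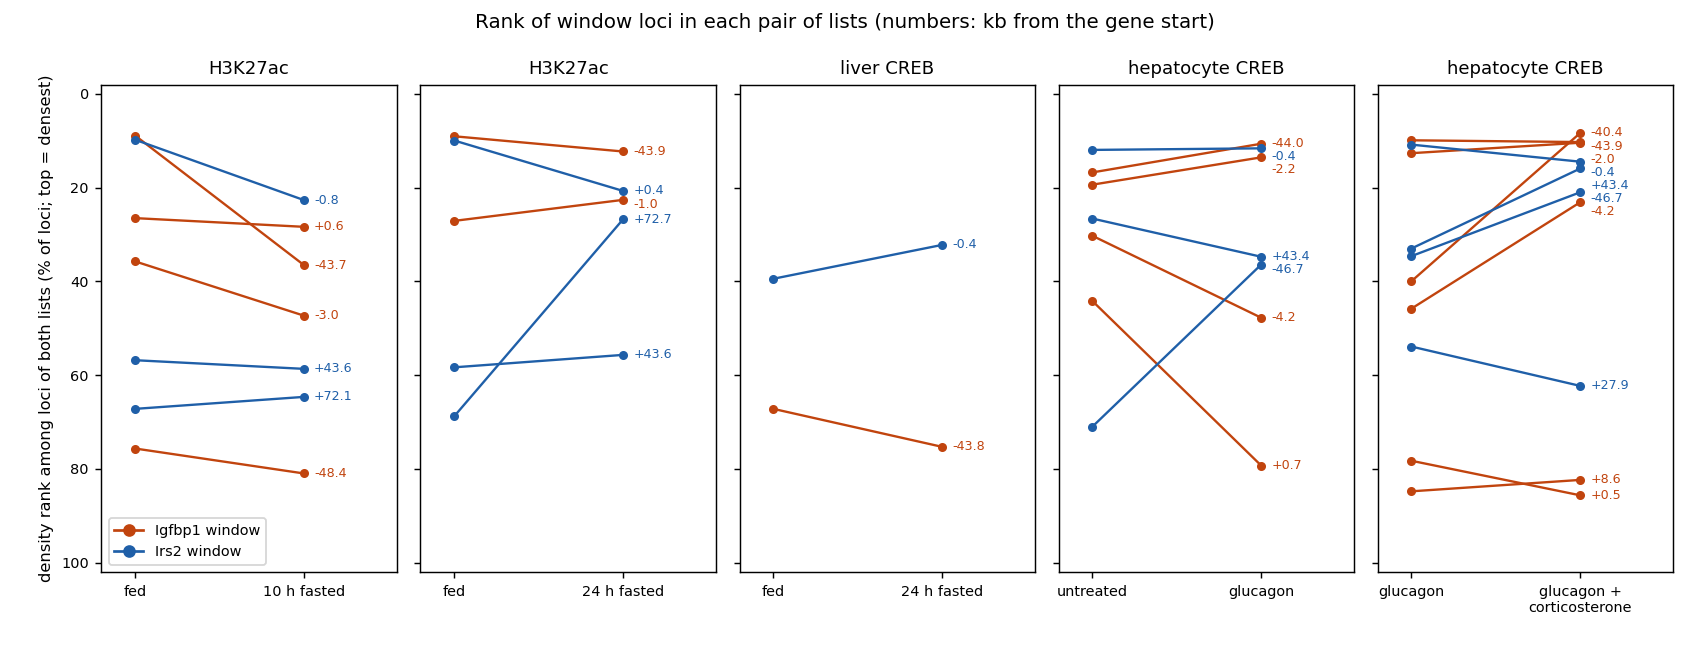
Rank by density among the loci common to 2 lists, in percent with the densest at the top, for the loci of both windows in 5 comparisons of feeding states and hormones. Each line is 1 locus and runs from its rank in the first list to its rank in the second; the steepest rises are the distal Irs2 H3K27ac locus by 24 h and the hepatocyte CREB loci 40.4 kb upstream of Igfbp1 and 46.7 kb upstream of Irs2.

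Away from the Irs2 start, 2 hepatocyte CREB sites, 46.7 kb upstream and 43.4 kb downstream, moved up when corticosterone was added to glucagon. The site 46.7 kb upstream of the gene had densities of 12.2 untreated (36.83%), 16.7 with glucagon (27.23%) and 41.7 with both hormones (11.17%). It moved up by 34.59 points with glucagon, from 71.01% to 36.42%, and by a further 13.62 points when corticosterone was added. From untreated cells to both hormones it moved up by 45.48 points, and 3.97% of common loci moved up as far or farther. The site 43.4 kb downstream had densities of 27.5 (11.37%), 17.3 (25.94%) and 52.5 (8.44%), and moved up by 17.07 points when corticosterone was added, from 32.99% to 15.92%. This was matched or passed by 12.9% of common loci. With glucagon the downstream site had moved down by 8.15 points. Between untreated cells and both hormones it moved up by only 8.02 points, from 21.42% to 13.40%. Both sites carried GR, with densities of 7.36 (26.15%) and 10.4 (16.10%). The downstream one lay in H3K27ac of all 3 feeding states, with densities of 18.0, 18.8 and 16.6, and the upstream one in none. Upstream of the start, sites at 2.3 and 12.4 kb were listed in untreated cells (densities of 18.6 and 25.7) and with both hormones (20.98 and 26.2), not with glucagon and not with GR, and both moved down by less than 10 points from untreated cells to both hormones, by 1.45 and 6.80 points. A region 1.5 kb upstream was listed in untreated cells alone (9.09, 51.28%). The region 27.4 kb downstream, at GR, was listed with glucagon (11.8, 43.27%) and with both hormones (15.9, 35.80%), and among the loci common to these lists it moved down by 8.40 points, from 53.91% to 62.30%.

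At the sites 43.4 kb downstream and 46.7 kb upstream, the 3 hepatocyte CREB lists and GR, with no liver factor, met together, as they did at 2076 factor loci (2.42%).

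The Irs2 window too held more regions than such an average in every list but the 2 pCREB lists. GR had 8 regions in it, against 0.563 on average for a stretch of that length. Beside the 3 sites already described, 3 lie between 25.4 and 27.3 kb downstream of the start, around or just past the far end of the gene, with densities of 8.88 (20.28%), 6.71 (29.58%) and 8.19 (23.12%). The last 2 lie within the gene, 17.3 kb and 4.4 kb from the start, with densities of 8.23 (22.55%) and 6.93 (28.28%). By z-score all 8 stood lower in the list than by density, from 33.82% to 86.90%. Their lowest z-score was 8.91, where the lowest of the GR list was 8.16. CREB with both hormones overlapped 5 of these 8, and 9 of the 15 GR regions of both windows, against 42.7% of all GR regions. H3K27ac of the 24 h fast overlapped 5 of the 15, against 21.8%. GR with no other factor was found at 1 locus of Igfbp1 and 3 of Irs2, and at 5.46% of all factor loci. The site 4.4 kb into Irs2 held GR and CREB with both hormones alone, as 0.578% of factor loci did. GR regions near the far end of the gene and without H3K27ac were thus present at both genes.

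**Figure D4:**
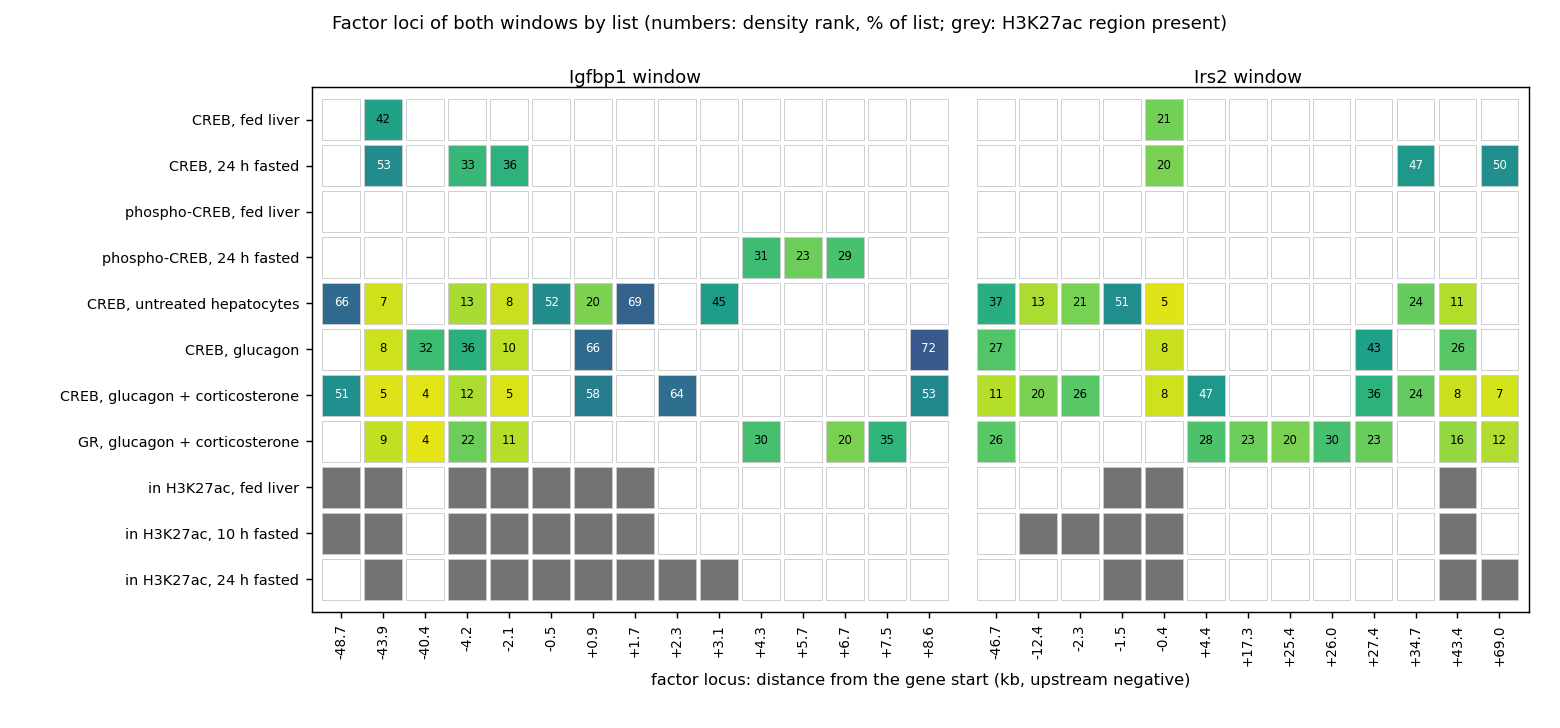
The 28 CREB, pCREB and GR loci of both windows, 1 column per locus by distance from the gene start in kb (upstream negative), against the 8 factor lists and, in grey, overlap with the 3 H3K27ac lists. A coloured cell holds a region, with its rank by density in percent of the list, and an empty cell holds none; GR is present in 15 columns and CREB with both hormones in 17.

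The 98 regions were 28 of H3K27ac and 70 of CREB, pCREB and GR, and the 70 joined into 28 factor loci, 15 at Igfbp1 and 13 at Irs2. GR was present at 15 of the 28, 7 at Igfbp1 and 8 at Irs2, against 13.3% of all factor loci. Of these 15, 9 also held CREB (60.0%), near the 57.4% of all GR loci that did. CREB regions of the list with both hormones overlapped GR in 9 of 18 cases, against 11.4% of that whole list. Of these 9, 2 were in neither other hepatocyte CREB list (12.8% of all CREB regions at GR) and 2 were in the glucagon list but not the untreated one (12.0%). An H3K27ac region of any feeding state overlapped 15 of the 28 loci, against 34.8% of all, and 6 of the 28 were in 4 or more lists, against 12.0%. A region in 1 list only was found at 10 of the 28, against 57.6% of all. The shares given for exact combinations of lists were counted because those combinations were met in the windows. Common ones were met there too, such as CREB of untreated hepatocytes alone (21.3% of all factor loci). The 3 hepatocyte CREB lists with no other factor, as over the Igfbp1 start, made up 12.1%. The 6 loci in 4 or more lists were those at 43.9, 4.2 and 2.1 kb upstream of Igfbp1, at the Irs2 start, and at 43.4 kb downstream and 46.7 kb upstream of Irs2, and their joined spans ran from 1090 to 2264 bases in the Igfbp1 window and from 903 to 1759 in the Irs2 window. Loci of 1 window are neighbours on a chromosome and are not independent of one another.

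Counts of moved loci were read against the same count over all common loci. Of 7 loci with H3K27ac in fed and 10 h lists, none moved up (22.9% of all common loci did) and 3 moved down (23.2%). Of 5 common to fed and 24 h lists, 1 moved up (18.8%) and 1 down (19.3%), and of 5 common to 10 h and 24 h lists, 2 moved up (24.6%) and none down (24.3%). Neither of the 2 loci common to the liver CREB lists moved, where 12.8% of all moved up and 13.5% down. From untreated cells to glucagon, 1 of 7 CREB loci moved up (24.5%) and 2 down (27.3%). From glucagon to both hormones, 4 of 10 moved up (21.3%) and none down (23.7%). From untreated cells to both hormones, 2 of 11 moved up (23.8%) and 1 down (31.2%). These counts are small, and most are near the background.

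**Figure D5:**
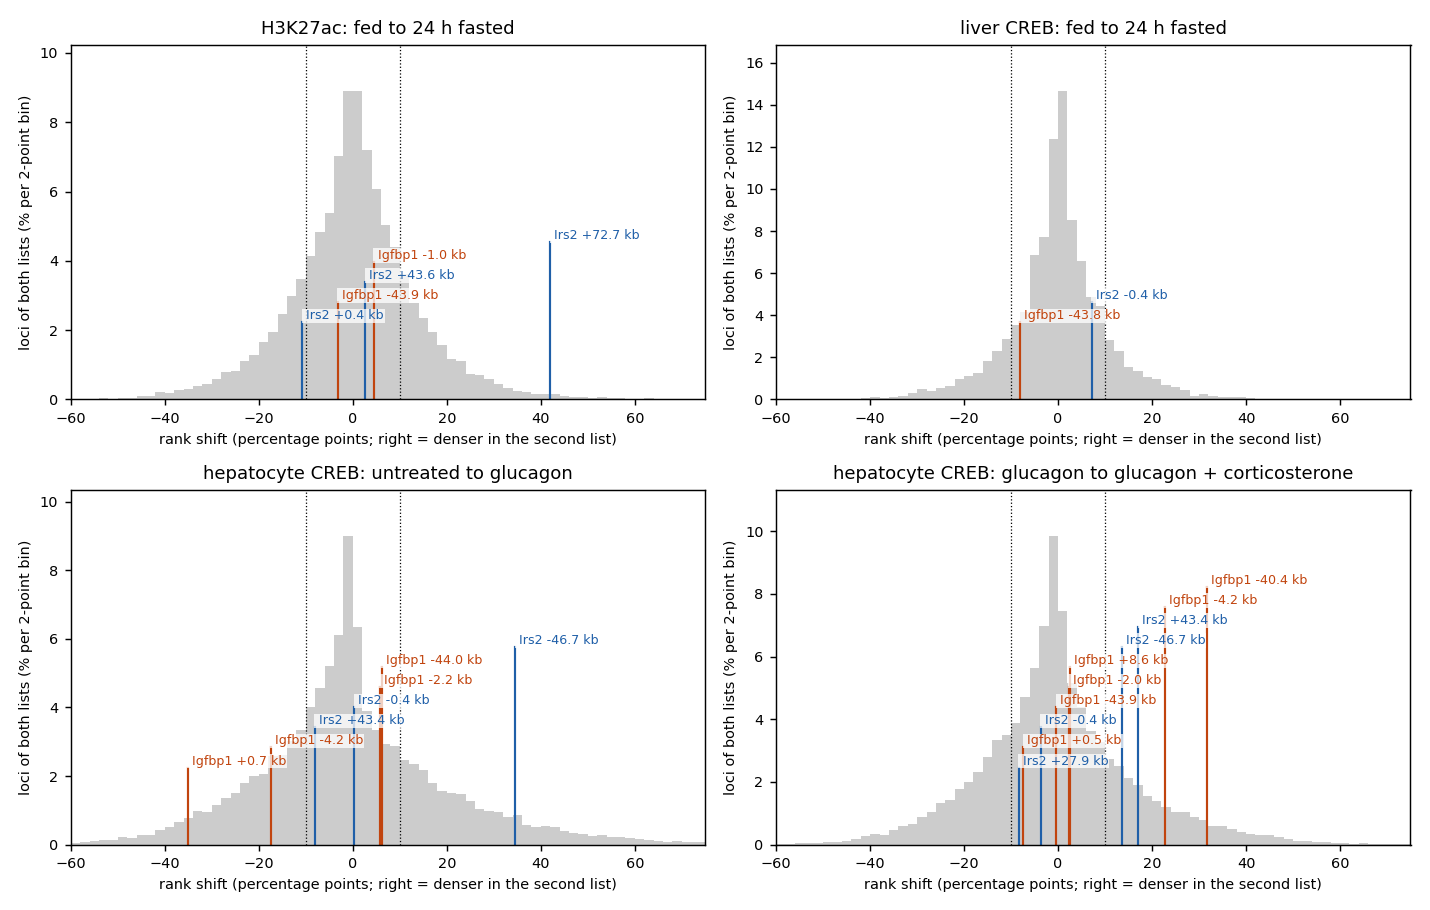
Distribution of the rank shift, in percentage points with positive values for a move up, over all loci common to 2 lists (share of loci in percent for each bin of 2 points) in 4 comparisons, with the loci of the Igfbp1 and Irs2 windows marked. The marks at +42.02 (Irs2 H3K27ac, fed to 24 h) and +31.63 (Igfbp1 CREB, glucagon to both hormones) lie in the thin right-hand ends of their distributions, and the height of a mark carries no value.

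Presence in a list was read in the same way. With glucagon, 3 of 10 CREB regions of the windows were absent from the untreated list (26.0% of the whole glucagon list were), and 9 of the 16 untreated regions were absent from the glucagon list (56.7%). With both hormones, 8 of 18 were absent from the glucagon list (47.7%) and 6 of 18 from the untreated one (39.3%). None of the 10 glucagon regions was absent from the list with both hormones, where 18.6% of that list were. Of the 16 untreated regions, 4 were absent from the list with both hormones (44.6%). For H3K27ac, 3 of 12 regions at 10 h (46.7%) and 1 of 7 at 24 h (20.3%) were absent from the fed list, and 4 of 12 at 10 h were absent at 24 h (45.3%), as was 1 of 7 at 24 h from the 10 h list (11.6%). Of the 9 fed regions, none was absent at 10 h (7.36% of the fed list were) and 1 at 24 h (14.6%). Both fed liver CREB regions were in the fasted list, from which 47.0% of fed CREB regions were absent. The sole H3K27ac region of the windows absent from the fed list at 24 h was the Irs2 site 69.0 kb downstream.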

How the data were processed

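The 11 region lists used were deposited by the authors on mm9, with CASAVA 1.8 named beside it in the submitters' processing notes. The settings of the caller, named hotspot in the list names, are not stated. Per the file headers, the authors computed for each region a density signal (MaxD). The z-score of each region is a score that the authors' caller made, per the file headers, with no scaling stated. Another density column (AveD) was left aside. Going by the library numbers in their names, the H3K27ac lists pool libraries, and the liver CREB and pCREB lists name 2 of 3 libraries. The lists of hormone-treated hepatocytes name 2 libraries each and the list of untreated hepatocytes names 1. Presence and absence between untreated and hormone lists are thus compared between unlike lists. The 8 value columns of 2 further lists match no sample and were not used.

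Lists were matched to groups by those library numbers. Regions sharing at least 1 base were joined into loci, and ranks, overlaps and rank shifts were computed over whole lists with Python 3.11.15, numpy 2.4.6 and pandas 2.3.3, after a check on simulated lists. By the rule for naming, every region of a window was accounted for, and the densest of each list and loci in 4 or more lists were given with their values, the rest mostly by counts and ranges. The members and lists were chosen with earlier results of these data known. Alternatives were the z-score as ranking value, windows of other sizes, other overlap rules, lists of equal length, no X and Y chromosomes, and only loci with 1 region in each list. A list of further insulin-axis genes was not run, since no mm9 gene positions were used here. No test was made.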

Additional observations from a re-analysis of the deposited data

How the results depend on the processing

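Of 47 rank shifts, 17 reached 10 points, and their 97 values under other settings all had the same sign, with 92 still at 10 points or more, while 9 combinations of a shift and a setting left no locus to rank. The 5 that fell short were the H3K27ac shift 3.0 kb upstream of Igfbp1 from fed to 10 h (-8.41 by z-score and -2.17 with regions within 500 bases joined), that over the Irs2 start from fed to 10 h (-9.30 by z-score), and the hepatocyte CREB shifts 4.2 kb upstream of Igfbp1 from untreated to glucagon (-9.11 by z-score) and 48.7 kb upstream from untreated to both hormones (4.79 by z-score). Apart from the z-score, the settings rank by the same densities. At loci with 1 region in each list they could hardly reverse a sign. By z-score, the lists in which the leading Irs2 region was among the top 10% fell from 4 to 1, 7 instead of 3 of 28 hepatocyte CREB shifts went down, and 1 of 2 liver CREB loci moved up in place of none. With 25 kb on each side of the genes, the leading Igfbp1 region was in the densest 10% in 3 lists and not 6, and with 100 kb the Irs2 window held 95 regions and not 47. With only loci that had 1 region in each list, 1 of 9 H3K27ac shifts went down in place of 4 of 17. The causes were not tested, apart from the window sizes, where the construction changes the regions counted. No paired analysis was possible because each group has 1 list with no value per replicate, and for the same reason no replicate could be left out. No pCREB shift was computed, since no locus of the windows was in both liver pCREB lists. Read depth is unknown, so absence from a list sets no upper limit on occupancy.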
